A study of Mus musculus with 12 samples.

Results

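The expression of 9 genes of the complement system was examined in mouse peritoneal macrophages: C1qa, C1qb and C1qc, which encode the chains of the recognition molecule C1q, the components C3, Cfb (factor B) and Cfp (properdin), the receptors C3ar1 and C5ar1, and the inhibitor Serping1. They were chosen by gene symbol, as the complement components, anaphylatoxin receptors and C1 inhibitor of interest, out of 16920 genes in the count tables. Earlier results of these data were known when the choice was made. All 9 were among the 12064 genes that passed the filter on low counts and were tested. The question behind the libraries was what Ythdf1, a protein that binds mRNA carrying a methyl mark on adenosine, does when macrophages meet lipopolysaccharide (LPS), a component of bacterial cell walls. There were 12 libraries, 3 in each of 4 groups. Cells of WT mice, and cells whose label says Ythdf1 knockout (KO), were each exposed for 6 h either to PBS or to LPS at 1 µg/mL. Mice were on a C57BL/6 background and 6 to 10 weeks old, the knockout was of the whole animal, and the labels do not say whether animals were pooled. The record calls the 3 libraries of a group independent samples. For the injection that elicits the cells, the record gives starch broth and the study's methods thioglycollate.

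Complement is a cascade of serum and surface proteins that marks particles for uptake and releases inflammatory peptides. C1q binds immune complexes and dying cells and starts the classical pathway, whereas factor B cleaves C3 in the alternative pathway in a complex that properdin stabilises. The peptides released from C3 and C5, the anaphylatoxins, act on the receptors C3aR1 and C5aR1 of myeloid cells, and the product of Serping1, C1 inhibitor, blocks the proteases that C1q activates. Most serum complement is made by the liver, while macrophages are a main source of C1q.

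Ythdf1 mRNA was not lost in the libraries labelled KO. It was measured at 43.6, 44.95 and 41.9 CPM in the WT PBS libraries and at 55.4, 58.1 and 58.1 CPM in the KO-labelled PBS libraries (CPM is the read count that edgeR gives relative to library size, here after TMM scaling, which assumes that most genes keep their share). With LPS it was measured at 212, 198 and 194 CPM in WT and at 196, 192 and 205 CPM in KO-labelled libraries. The mRNA therefore did not check the genotype labels, and "KO-labelled" is used for these libraries throughout. Whether the protein was lost in these cells cannot be told from mRNA levels. The study reports tail genotyping of the knockout line, and YTHDF1 immunoblots of liver and spleen from bone marrow chimeras.

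Total counts per library lay between 21546274 and 22017005. TMM factors were 1.258 to 1.314 with PBS and 0.744 to 0.808 with LPS. With totals and factors together, 3 counts equalled 0.105 to 0.187 CPM. The 7 macrophage markers, among them Adgre1, Csf1r and Lyz2, were all expressed and summed to 17110 to 19190 CPM, more than any other marker list. Markers of resident peritoneal macrophages were scarce, with 6 genes summing to 12.8 to 26.2 CPM. Replicate 1 of the WT LPS group stood apart from replicates 2 and 3, by a mean chi-square per gene of 30.5 and 23.7, against 2.95 between the latter. In the KO-labelled LPS group, replicates 2 and 3 differed by 15.3, and every other pair within a group by 2.73 to 6.87.

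The proximal promoters of C1qb, C1qc, Cfp and C3 are shown because these genes were all lower in KO-labelled libraries, while C3 also rose strongly with LPS. Each sequence covers 250 bases before to 50 bases after a RefSeq start site and is read from RefSeq (GRCm38.p6) on the gene's own strand, which is the minus strand in all of them. Entries were found for 6 of the 9 genes, namely these and C3ar1 and C5ar1. C1qb lies at chr4:136886151-136886450, C1qc at chr4:136892865-136893164, Cfp at chrX:20931506-20931805 and C3 at chr17:57228087-57228386. Capitals mark matches to the motifs searched.
C1qb: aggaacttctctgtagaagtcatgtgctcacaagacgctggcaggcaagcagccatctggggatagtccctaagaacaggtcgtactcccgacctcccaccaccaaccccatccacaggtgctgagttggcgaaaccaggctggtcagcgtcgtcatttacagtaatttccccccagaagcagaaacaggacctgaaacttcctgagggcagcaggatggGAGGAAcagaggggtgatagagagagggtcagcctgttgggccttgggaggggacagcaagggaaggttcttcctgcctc
C1qc: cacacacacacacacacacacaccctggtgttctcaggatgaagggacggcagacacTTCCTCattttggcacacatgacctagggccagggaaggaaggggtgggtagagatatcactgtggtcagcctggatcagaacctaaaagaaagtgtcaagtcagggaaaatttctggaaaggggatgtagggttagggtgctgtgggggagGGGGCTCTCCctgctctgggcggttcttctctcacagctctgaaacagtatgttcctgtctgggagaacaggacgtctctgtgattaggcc
Cfp: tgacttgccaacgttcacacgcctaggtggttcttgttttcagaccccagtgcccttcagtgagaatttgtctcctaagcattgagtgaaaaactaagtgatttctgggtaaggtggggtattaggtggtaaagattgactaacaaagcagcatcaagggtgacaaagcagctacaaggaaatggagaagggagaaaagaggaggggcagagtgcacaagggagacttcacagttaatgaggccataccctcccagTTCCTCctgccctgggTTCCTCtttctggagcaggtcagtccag
C3: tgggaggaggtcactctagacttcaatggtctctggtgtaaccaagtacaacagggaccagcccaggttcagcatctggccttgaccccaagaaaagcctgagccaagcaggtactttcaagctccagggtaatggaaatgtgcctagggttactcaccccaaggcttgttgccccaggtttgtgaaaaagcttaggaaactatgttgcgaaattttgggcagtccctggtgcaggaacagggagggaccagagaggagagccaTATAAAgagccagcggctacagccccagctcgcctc

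Searched on both strands were the PU.1 core GAGGAA, the TATA box TATAAA, the interferon-stimulated response element core GAAANNGAAA, the GAS site TTCNNNGAA, the C/EBP site TTGCNNCAA and the NF-kB site. The PU.1 core was matched in C1qb (position -30 from the start site), in C1qc (-193, reverse strand) and at 2 positions in Cfp (7 and 23, reverse strand). This motif occurs in 28.3% of the 32851 promoters of the same length. C1qc also held a match to the NF-kB site at -41 (8.46% of promoters), with no overlap with its other match. C3 held a match to the letters TATAAA at 15 and C3ar1 one at -235 (13.6% of promoters), and C5ar1 held no match. No match to the interferon-stimulated element (3.44% of promoters), the GAS site (8.3%) or the C/EBP site (2.08%) was found in the 6 promoters. Such matches describe letters in these windows only.

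**Figure D1:**
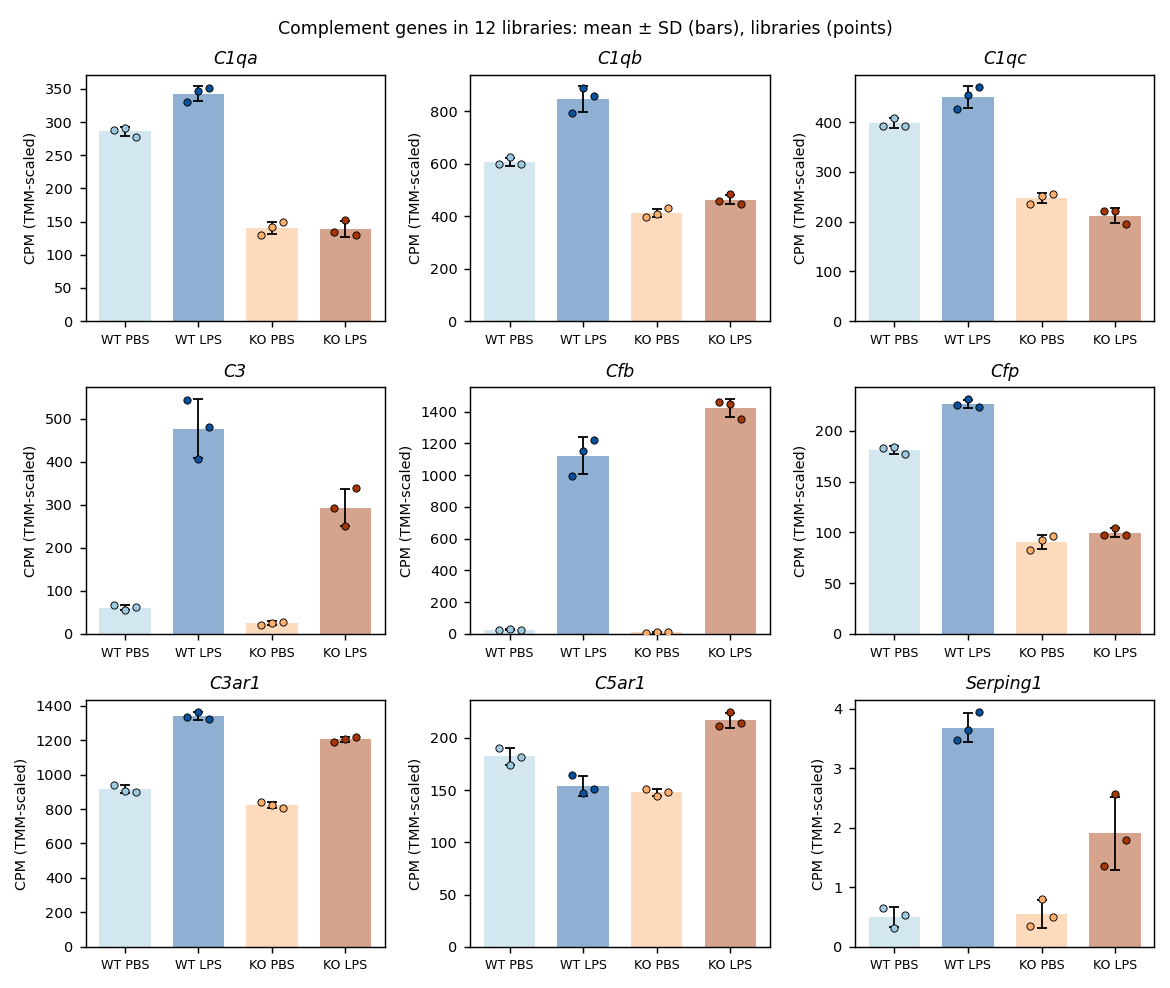
Expression of the 9 complement genes in CPM (TMM-scaled) on a linear axis for each gene, with group means as bars, SD as error bars and the 3 libraries of each group as points. C1qa, C1qb, C1qc and Cfp sat lower in all KO-labelled libraries than in all WT libraries, whereas C3 and Cfb rose from low PBS levels in both genotypes.

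The chains of C1q, which assemble into a single protein, are encoded side by side on chromosome 4 (GRCm38.p6: C1qa, gene 12259, chr4:136895916-136898844; C1qc, gene 12262, chr4:136889801-136892936; C1qb, gene 12260, chr4:136880126-136886200). All 3 mRNAs were lower in KO-labelled than in WT libraries, with PBS and with LPS. C1qa showed the greatest difference, a 2.04-fold lower level with PBS and a 2.47-fold lower level with LPS.

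C1qa was measured at 288, 292 and 278 CPM with PBS and at 330, 346 and 352 CPM with LPS in WT libraries. In KO-labelled libraries it was measured at 130, 142 and 149 CPM with PBS and at 134, 152 and 130 CPM with LPS. The WT and KO-labelled values did not overlap under either treatment, while PBS and LPS values overlapped in the KO-labelled libraries. The log2 difference of KO-labelled from WT was -1.03 ± 0.07 (SE) with PBS (edgeR quasi-likelihood test, Benjamini-Hochberg adjusted p = 2.44e-08) and -1.30 ± 0.07 with LPS (adjusted p = 1.18e-09).

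C1qb was measured at 598, 624 and 597 CPM with PBS and at 793, 888 and 857 CPM with LPS in WT libraries. The KO-labelled libraries gave 398, 408 and 430 CPM with PBS and at 458, 483 and 447 CPM with LPS. Every KO-labelled library was below every WT library. The log2 difference by genotype label was -0.56 ± 0.06 with PBS (adjusted p = 4.26e-06) and -0.87 ± 0.06 with LPS (adjusted p = 2.02e-08).

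C1qc was measured at 391, 409 and 393 CPM with PBS and at 427, 454 and 470 CPM with LPS in WT libraries. With the KO label the values were 236, 251 and 255 CPM with PBS and at 221, 220 and 194 CPM with LPS. It was lower in each KO-labelled library than in any WT library, and within the KO-labelled libraries every LPS value was below every PBS value. The log2 difference by genotype label was -0.68 ± 0.06 with PBS (adjusted p = 1.04e-06) and -1.09 ± 0.06 with LPS (adjusted p = 3.42e-09).

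The size of the C1q response to LPS, and for C1qa and C1qb in both genotypes and C1qc in WT also its sign, depended on how libraries were scaled. In WT libraries the log2 change under TMM scaling was 0.26 ± 0.07 for C1qa (adjusted p = 0.00163), 0.48 ± 0.06 for C1qb (adjusted p = 9.78e-07) and 0.18 ± 0.06 for C1qc (adjusted p = 0.0147), but scaling by library totals alone gave -0.40, -0.18 and -0.48. The deposited counts themselves were lower with LPS. C1qa had 7768 to 8154 counts in WT PBS libraries and 5715 to 6240 in WT LPS libraries, at near equal totals. Upper-quartile scaling turned C1qa and C1qc as well, to -0.05 and -0.13. In KO-labelled libraries the TMM values were -0.02 ± 0.07 for C1qa (adjusted p = 0.825), 0.17 ± 0.06 for C1qb (adjusted p = 0.0144) and -0.22 ± 0.06 for C1qc (adjusted p = 0.00347), and C1qb turned to -0.19 under upper-quartile scaling and to -0.63 under totals alone. C1qc in KO-labelled libraries was lower with LPS under each scaling tried, at -0.58 with the upper quartile and -1.02 with totals alone, and C1qa there passed as lower under these scalings (-0.37 and -0.82). The call for C1qc in WT was lost without WT PBS replicate 3 (log2 0.17, adjusted p = 0.0515) and without WT LPS replicate 3 (0.15, adjusted p = 0.0685), and with no filter (0.14, adjusted p = 0.0669). For C1qb in KO-labelled libraries it was lost when replicate 1 (0.13) or 2 (0.15) of KO PBS or replicate 2 of KO LPS (0.14) was left out, with no filter (0.12, adjusted p = 0.0923) and with at least 10 counts in every library (0.12, adjusted p = 0.0664).

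The difference between these responses did not turn with the scaling. It was tested as the interaction of genotype label with LPS, and it was negative for C1qa (-0.28 ± 0.09, adjusted p = 0.0487), C1qb (-0.31 ± 0.08, adjusted p = 0.015) and C1qc (-0.40 ± 0.09, adjusted p = 0.00464). The C1qa call lay at the threshold and was lost in 9 of the 12 fits that left out 1 library, with values from -0.36 to -0.23 and adjusted p from 0.0129 to 0.122. It was kept in the fits that left out replicate 1 of WT LPS, replicate 1 of KO PBS or replicate 2 of KO LPS, and was also lost with no filter on low counts (-0.28, adjusted p = 0.0518).

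Ratios of mRNAs within a library carry no scaling between libraries. Counts were divided by transcript length, which allows different genes to be compared. Per kb, C1qb was the most abundant chain in all libraries, and the C1qa to C1qb ratio was 0.493 ± 0.00970 (SD, n = 3) in WT PBS, 0.425 ± 0.0148 in WT LPS, 0.356 ± 0.0117 in KO-labelled PBS and 0.313 ± 0.0135 in KO-labelled LPS libraries. The 4 groups did not overlap. The C1qc to C1qb ratio was 0.593 ± 0.00200 in WT PBS, 0.482 ± 0.0176 in WT LPS, 0.543 ± 0.0123 in KO-labelled PBS and 0.414 ± 0.0216 in KO-labelled LPS libraries. The chains thus did not keep fixed proportions, and C1qb took a larger share with LPS and with the KO label. Ratios are given as a description and were not tested.

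C3, the central component that all pathways cleave (gene 12266, chr17:57203967-57228136), rose with LPS in both genotypes and was lower with the KO label. It was measured at 66.4, 56.2 and 61.4 CPM with PBS and at 544, 406 and 481 CPM with LPS in WT libraries. KO-labelled cells had 20.8, 26.3 and 28.7 CPM with PBS and at 293, 250 and 338 CPM with LPS. All LPS values lay above all PBS values, and all KO-labelled values lay below the WT values of the same treatment.

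The rise of C3 with LPS was 7.78-fold in WT (log2 2.96 ± 0.14, adjusted p = 4.46e-10) and 11.6-fold in KO-labelled libraries (log2 3.54 ± 0.15, adjusted p = 9.11e-11), which became 4.89-fold and 6.68-fold under totals alone. The log2 difference by genotype label was -1.28 ± 0.14 with PBS (adjusted p = 5.01e-05) and -0.70 ± 0.13 with LPS (adjusted p = 0.00116). The difference between the LPS responses, 0.58 ± 0.20, did not pass the test (adjusted p = 0.0593). It passed with DESeq2 (0.56, adjusted p = 0.0298), with at least 10 counts required in every library (0.57, adjusted p = 0.0481) and with a replicate block (0.58, adjusted p = 0.0292). It also passed without KO PBS replicate 3 (0.66) and without KO LPS replicate 2 (0.69).

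Cfb, the protease subunit of the alternative pathway convertase (gene 14962, chr17:34856374-34862514), had the largest response to LPS among the 9 genes. It was measured at 27.1, 28.2 and 27.0 CPM with PBS and at 994, 1154 and 1218 CPM with LPS in WT libraries. In KO-labelled cells it stood at 8.19, 10.7 and 14.3 CPM with PBS and at 1462, 1446 and 1356 CPM with LPS. The KO-labelled libraries were all below WT with PBS and all above WT with LPS. WT LPS replicate 1 was the lowest of the LPS libraries.

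The rise of Cfb was 40.9-fold in WT (log2 5.35 ± 0.15, adjusted p = 1.8e-13) and 128-fold in KO-labelled libraries (log2 7.01 ± 0.16, adjusted p = 2.1e-14), and 25.8-fold and 73.5-fold under totals alone. The interaction was 1.65 ± 0.19 on the log2 scale (adjusted p = 6.09e-05), a 3.14-fold greater response in KO-labelled libraries. With PBS, Cfb was 2.48-fold lower with the KO label (log2 -1.31 ± 0.14, adjusted p = 2.36e-05). With LPS it was 1.27-fold higher (log2 0.34 ± 0.12, adjusted p = 0.0364), but this call was lost in 9 of the 12 fits that left out 1 library. Without WT LPS replicate 1, the library that stood apart, the log2 value was 0.26 (adjusted p = 0.119). It stayed past the threshold when replicate 3 of WT LPS or replicate 1 or 3 of KO PBS was left out, and was also lost under upper-quartile scaling (0.27, adjusted p = 0.0995), totals alone (0.25, adjusted p = 0.121) and with no filter (0.34, adjusted p = 0.075).

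Per kb of transcript, Cfb was slightly less abundant than C3 with PBS and several times more abundant with LPS. The Cfb to C3 ratio was 0.766, 0.942 and 0.825 in WT PBS libraries and 0.738, 0.763 and 0.936 in KO-labelled PBS libraries, which overlapped. With LPS it was 3.43, 5.33 and 4.75 in WT and 9.36, 10.8 and 7.52 in KO-labelled libraries, so that the 2 groups did not overlap.

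Cfp, the gene of properdin (gene 18636, chrX:20925454-20931555), behaved like C1qa by genotype label. It was measured at 184, 184 and 177 CPM with PBS and at 225, 231 and 224 CPM with LPS in WT libraries. The corresponding KO-labelled values were 82.7, 92.3 and 96.7 CPM with PBS and at 97.2, 105 and 97.4 CPM with LPS. Every KO-labelled value was far below every WT value.

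The log2 difference of Cfp by genotype label was -1.003 ± 0.06 with PBS (adjusted p = 1.41e-08) and -1.18 ± 0.06 with LPS (adjusted p = 1.3e-09). Its change with LPS under TMM was 0.32 ± 0.06 in WT (adjusted p = 0.000138) and 0.14 ± 0.06 in KO-labelled libraries (adjusted p = 0.0488), values that turned to -0.34 and -0.66 under totals alone and to 0.01 and -0.22 under upper-quartile scaling. The KO-labelled call was lost in 10 of the 12 fits that left out 1 library (adjusted p from 0.0209 to 0.326), with no filter (0.09, adjusted p = 0.234), with at least 10 counts in every library (0.09, adjusted p = 0.185) and in a fit of the 6 libraries compared (0.13, adjusted p = 0.0843). The interaction was -0.18 ± 0.09 (adjusted p = 0.169), and it passed without KO PBS replicate 1 (-0.27, adjusted p = 0.0391) and under totals alone (-0.32, adjusted p = 0.015). Per kb, the Cfp to Cfb ratio was 11.1 ± 0.233 in WT PBS and 14.2 ± 2.80 in KO-labelled PBS libraries, against 0.341 ± 0.0357 in WT LPS and 0.118 ± 0.00554 in KO-labelled LPS libraries.

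**Figure D2:**
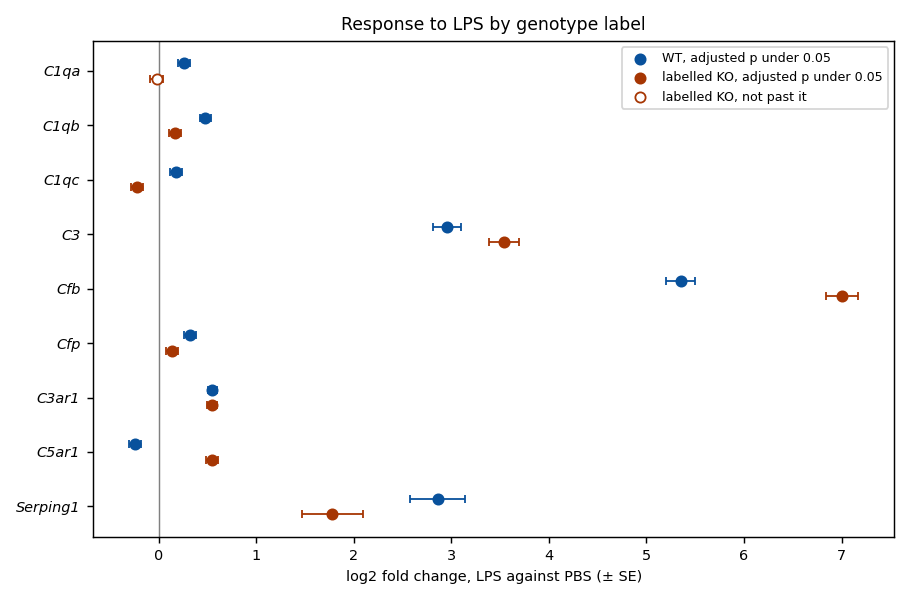
Log2 fold change with LPS against PBS for each gene in WT (blue) and KO-labelled (brown) libraries under TMM scaling, with SE bars from 3 libraries a group. Filled points passed an adjusted p of 0.05. Cfb lay at 5.35 and 7.01, and C5ar1 lay on opposite sides of 0, at -0.24 and 0.55.

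The receptors of the anaphylatoxins diverged in their response to LPS in WT libraries, whereas in KO-labelled libraries both had a log2 change of 0.55 under TMM. C3ar1, which binds the C3a peptide (gene 12267, chr6:122847140-122856157), was measured at 940, 907 and 898 CPM with PBS and at 1337, 1364 and 1321 CPM with LPS in WT libraries. KO-labelled libraries held 842, 821 and 808 CPM with PBS and at 1188, 1210 and 1216 CPM with LPS. Its LPS values lay above its PBS values in both genotypes, and each KO-labelled group lay slightly below its WT group without overlap. The counts of C3ar1 carried decimals in 4 libraries and those of the other 8 genes in 0, so that part of its reads may have been shared with another gene by the authors' counting.

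The log2 change of C3ar1 with LPS was 0.55 ± 0.05 in WT (adjusted p = 1.99e-08) and 0.55 ± 0.05 in KO-labelled libraries (adjusted p = 1.89e-08), which became -0.11 and -0.25 under totals alone. The interaction was 0.00 on the log2 scale (SE 0.07, adjusted p = 0.984). Its difference by genotype label was -0.15 ± 0.05 with PBS (adjusted p = 0.0323) and -0.15 ± 0.05 with LPS (adjusted p = 0.018). The PBS call was lost in 6 of the 12 fits that left out 1 library, namely each that left out a PBS library of either genotype (-0.17 to -0.10). The LPS call was lost when replicate 2 of WT LPS was left out (-0.14) or replicate 1 of KO LPS (-0.14, adjusted p = 0.0648), and in a fit of the 6 libraries compared (-0.17, adjusted p = 0.0564). The PBS call was also lost with RLE scaling (-0.13), totals alone (-0.10) and no filter (-0.15).

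C5ar1, which binds the C5a peptide (gene 12273, chr7:16246743-16259540), was measured at 191, 174 and 182 CPM with PBS and at 165, 147 and 151 CPM with LPS in WT libraries. In KO-labelled libraries it was measured at 151, 145 and 148 CPM with PBS and at 211, 225 and 214 CPM with LPS. LPS values were all below PBS values in WT and all above them in KO-labelled libraries. With LPS, every KO-labelled library was above every WT library, the reverse of the order with PBS.

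The log2 change of C5ar1 with LPS was -0.24 ± 0.06 in WT (adjusted p = 0.00137) and 0.55 ± 0.06 in KO-labelled libraries (adjusted p = 1.92e-07), although totals alone gave -0.25 in the latter. The interaction was 0.79 ± 0.08 (adjusted p = 1.01e-05) and ranged from 0.72 to 0.84 over the 12 fits that left out 1 library. By genotype label the log2 difference was -0.30 ± 0.06 with PBS (adjusted p = 0.00143) and 0.49 ± 0.06 with LPS (adjusted p = 8.22e-06).

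The C3ar1 to C5ar1 ratio within a library shows the divergence in WT free of scaling. Per kb it was 2.91, 3.08 and 2.91 in WT PBS libraries and 4.79, 5.49 and 5.16 in WT LPS libraries. In KO-labelled libraries it was 3.29, 3.35 and 3.21 with PBS and 3.32, 3.18 and 3.35 with LPS. The ratio was higher with LPS than with PBS in WT, with no overlap, whereas the 2 KO-labelled groups overlapped.

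**Figure D3:**
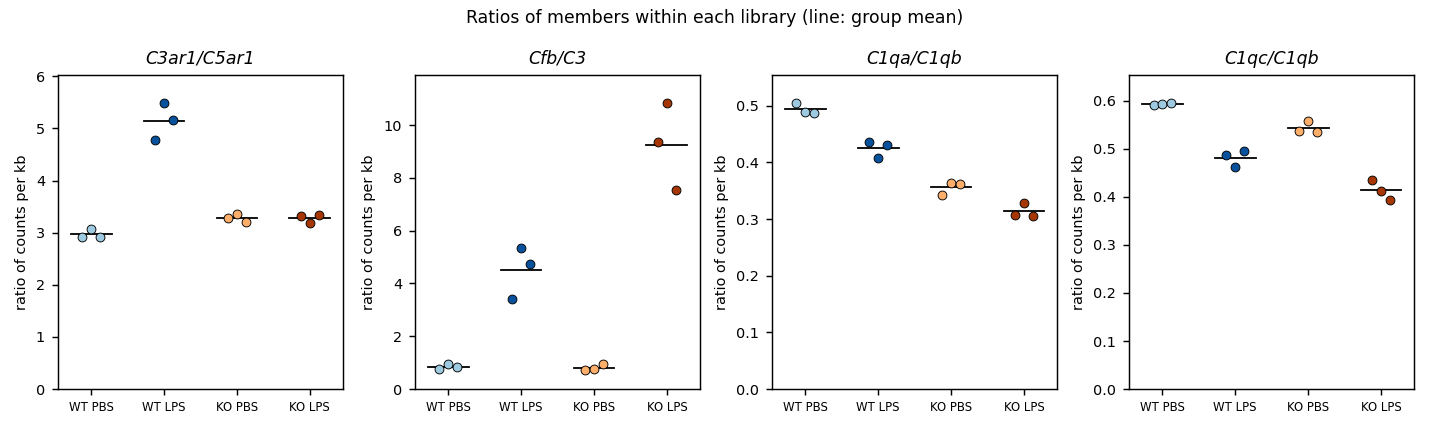
Ratios of counts per kb of transcript within each of the 12 libraries (points) with group means (lines), for C3ar1 to C5ar1, Cfb to C3, C1qa to C1qb and C1qc to C1qb, each axis starting at 0. The C3ar1 to C5ar1 ratio averaged 5.15 in WT LPS libraries and 2.97 to 3.28 in the other groups, and the Cfb to C3 ratio averaged 4.50 in WT LPS and 9.24 in KO-labelled LPS libraries.

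Serping1, the inhibitor of the C1 proteases (gene 12258, chr2:84765360-84775444), was near the limit of detection with PBS and rose with LPS. It was measured at 0.651, 0.322 and 0.536 CPM with PBS and at 3.47, 3.64 and 3.95 CPM with LPS in WT libraries. The KO-labelled libraries gave 0.350, 0.807 and 0.496 CPM with PBS and at 1.35, 2.57 and 1.80 CPM with LPS. These values rest on 9 to 23 counts a library with PBS, on 60 to 70 counts in WT LPS and on 22 to 42 counts in KO-labelled LPS libraries. PBS values overlapped between genotypes, and with LPS all WT libraries were above all KO-labelled libraries.

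The rise of Serping1 was 7.27-fold in WT (log2 2.86 ± 0.28, adjusted p = 8.18e-08) and 3.44-fold in KO-labelled libraries (log2 1.78 ± 0.31, adjusted p = 6.18e-05), against 4.59-fold and 1.98-fold under totals alone. The log2 difference by genotype label was 0.13 ± 0.37 with PBS (adjusted p = 0.833) and -0.95 ± 0.25 with LPS (adjusted p = 0.00594). The difference of the LPS responses, -1.08 ± 0.45, did not pass the test (adjusted p = 0.109), and it passed without KO LPS replicate 2 (-1.35, adjusted p = 0.0475).

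Counted over the 9 genes, 9 passed the test for LPS against PBS in WT under TMM scaling, 8 higher and 1 lower. Of all genes tested, 76.7% passed in that comparison, 36.5% higher and 40.2% lower, so that passing in itself was common. In KO-labelled libraries 8 passed, 7 higher and 1 lower, against 79.9% of all genes (38.8% higher and 41.1% lower). The median log2 change of the 9 genes was 0.48 in WT and 0.55 in KO-labelled libraries, and that of all genes tested was -0.05 and -0.04. Under totals alone, which moved the median of all genes to -0.71 and -0.84, all 9 passed in both genotypes with 3 higher and 6 lower. Under upper-quartile scaling, which moved it to -0.36 and -0.40, 5 were higher and 1 lower in WT, and 5 higher and 4 lower in KO-labelled libraries. Only C3, Cfb and Serping1 were higher with LPS under TMM, RLE, upper-quartile and totals scaling in both genotypes.

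**Figure D4:**
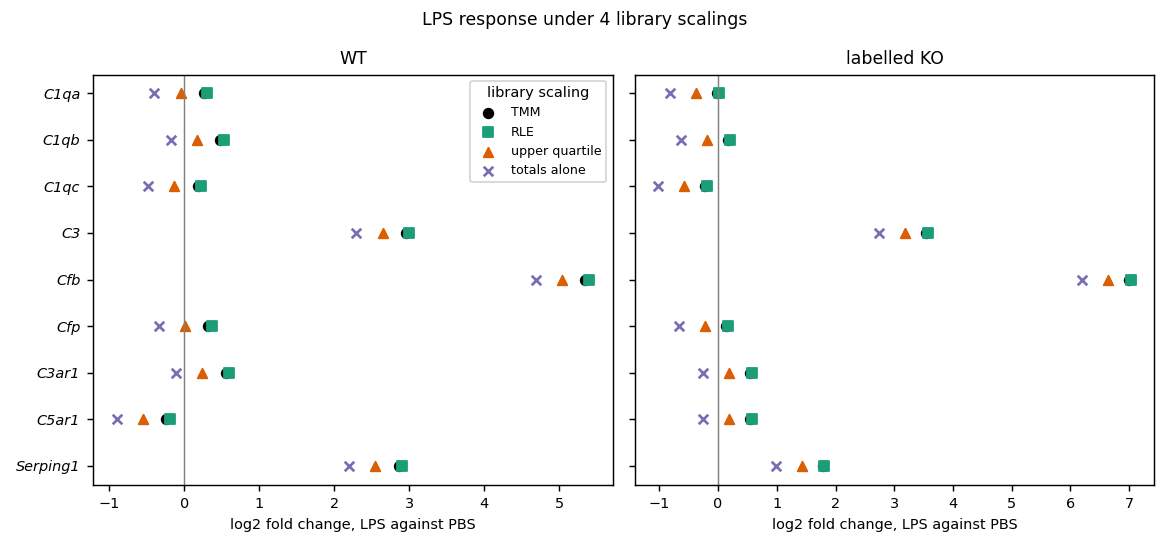
Log2 fold change with LPS against PBS under TMM, RLE, upper-quartile and library-total scaling, in WT and KO-labelled libraries. C3, Cfb and Serping1 stayed right of 0 under each scaling, whereas C1qb in WT moved from 0.48 under TMM to -0.18 under totals alone.

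For KO-labelled against WT, 8 of the 9 genes passed with PBS, all 8 of them lower, against 25.3% of all genes tested (12.3% higher and 13% lower). With LPS 9 passed, 2 higher and 7 lower, against 41.4% of all genes (22.1% higher and 19.3% lower). The median log2 difference of the 9 genes was -0.68 with PBS and -0.87 with LPS, and the medians of all genes were 0.00. Since the 9 genes were chosen with earlier results of these data known, counts over them are a description only. These 2 comparisons share no library with each other, but each shares its libraries with the LPS comparisons. The interaction passed for 5 genes, 2 higher (Cfb and C5ar1) and 3 lower (C1qa, C1qb and C1qc), against 18% of all genes (9.78% higher and 8.26% lower). The median interaction was -0.18 over the 9 genes and 0.01 over all genes.

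**Figure D5:**
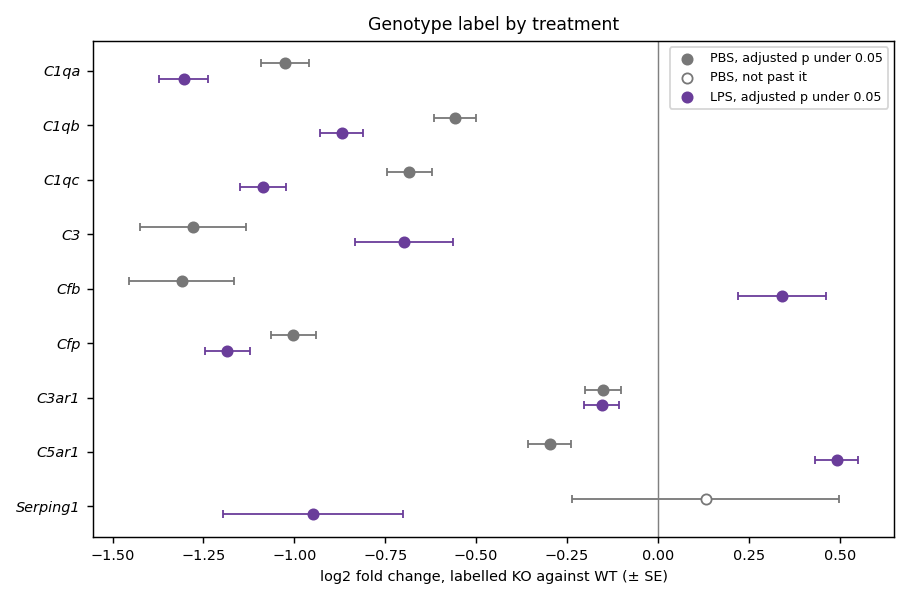
Log2 difference of KO-labelled from WT libraries with PBS (grey) and with LPS (purple) under TMM scaling, with SE bars from 3 libraries a group. C1qa, C1qb, C1qc, C3 and Cfp lay between -1.30 and -0.56 under both treatments, and Cfb and C5ar1 lay below 0 with PBS and above it with LPS.

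Markers of other cells moved with the genotype label and with LPS too. In bulk libraries, fewer cells of a type and less RNA per cell cannot be told apart. All 5 fibroblast markers tested of the 6 listed (Col1a1, Col1a2, Col3a1, Pdgfra and Dcn) were lower in KO-labelled libraries under both treatments, with a median log2 difference of -1.12 with PBS and -0.98 with LPS, while Lum was at or near 0. The summed level of the fibroblast list was 75.1 to 88.6 CPM in WT PBS, 118 to 132 CPM in WT LPS, 32.9 to 46.2 CPM in KO-labelled PBS and 56.9 to 69.4 CPM in KO-labelled LPS libraries. With LPS under TMM, 4 of these 5 genes were higher in both genotypes (median log2 of the 5, 0.63 in WT and 0.59 in KO-labelled libraries), values as large as the changes of the C1q genes, Cfp and C3ar1. For the interaction, the adjusted p of the 5 genes lay between 0.231 and 0.957. Of 7 mesothelial markers, 2 were lower with the KO label with PBS and 1 with LPS, with sums of 10.3 to 13.0 CPM in WT and 5.35 to 10.9 CPM in KO-labelled libraries. Of 6 markers of resident peritoneal macrophages, 4 were lower and 1 higher with PBS, and 3 were lower with LPS.

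Skeletal muscle markers summed to 17.2 to 33.6 CPM in the WT libraries and to 15.2, 19.5 and 0.319 CPM in the KO-labelled PBS libraries, and were near 0 in the KO-labelled LPS libraries (0.428 to 0.684 CPM). KO PBS replicate 1, whose muscle sum was 15.2 CPM, had the lowest value of its group for 7 of the 9 complement genes, and KO PBS replicate 3 the highest for 6. KO PBS replicate 2, with the larger muscle sum of 19.5 CPM, had the lowest value for 1 and the highest for 1. Such counts were not made over all genes. Macrophage markers also differed by genotype label, mostly with LPS. Their summed level, 17110 to 19190 CPM with the WT label and 17970 to 19190 CPM with the KO label, was mostly Lyz2 (9852 to 12840 CPM) and says little of the others. With PBS 1 of the 7 was lower, Adgre1 (log2 -0.33, adjusted p = 0.000217). With LPS 3 of the 7 were lower, namely Mertk, a receptor for the uptake of dying cells (means of 232 CPM for WT and 98.3 CPM for the KO label, log2 -1.24, adjusted p = 1.91e-09), Csf1r (424 and 294 CPM, log2 -0.53, adjusted p = 0.00115) and Cd68 (log2 -0.21, adjusted p = 0.00377). The interaction of these 3 was negative as well (-1.29, -0.58 and -0.27, adjusted p = 3.17e-07, 0.0159 and 0.0179), like that of the C1q genes, while that of Adgre1 was positive (0.27, adjusted p = 0.0151). Of 4 markers of monocyte-derived macrophages, Ly6c2 was higher with LPS in KO-labelled libraries (means of 29.3 CPM for WT and 91.2 CPM for the KO label, log2 1.64, adjusted p = 6.92e-08), with an interaction of 1.33 (adjusted p = 0.000153), the direction of Cfb and C5ar1. The means of Fn1, another of this list, were 1525 and 1089 CPM (adjusted p = 0.0944). Ccr2 (log2 0.10, adjusted p = 0.774) and Plac8 (0.36, adjusted p = 0.264) did not pass by genotype label with LPS. The summed level of these 4 markers, most of it Fn1, was 875 to 1067 CPM in WT PBS, 1156 to 2146 CPM in WT LPS, 692 to 781 CPM in KO-labelled PBS and 1035 to 1360 CPM in KO-labelled LPS libraries. Neutrophil markers were at or near 0 except S100a8, at 4.002 to 15.2 CPM, and Camp, at up to 0.798 CPM with LPS, and those of mast cells did not exceed 3 counts. S100a8 was higher with the KO label with LPS (log2 0.49, adjusted p = 0.049), the direction of Cfb and C5ar1, and Siglecf, the eosinophil marker tested, was lower (log2 -0.86, adjusted p = 0.022). Both dendritic cell markers tested were higher with LPS in both genotypes, Xcr1 (log2 3.28 and 3.53) and Zbtb46 (1.05 and 1.73), while Zbtb46 was lower with the KO label with PBS (-1.07, adjusted p = 0.0169). Cd79b, the B cell marker tested, was lower with LPS (-2.70 and -2.27). Of 2 T cell markers tested, 1 was lower with LPS in each genotype (median log2 of the 2, -0.57 in WT and -0.78 in KO-labelled libraries), and the T cell list summed to at most 2.9 CPM. The summed level of the dendritic cell list stayed at or under 3.67 CPM and that of the B cell list at or under 1.92 CPM. The part of other cells and of macrophage states in the complement differences was not tested.

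The genes whose 4 group means had the pattern nearest to each complement gene were found among all tested genes, by the root mean square difference of centred log2 CPM. Nearest to C1qa were Ccnd1, Cfp and Gpx7 (0.0477, 0.0703 and 0.0821 log2 units). Nearest to Cfp were Pdgfra, a fibroblast marker of the list above, Ryk and C1qa (0.0449, 0.0647 and 0.0703). Nearest to Cfb were Ccl2, a monocyte-attracting chemokine, Cd38 and Saa3 (0.149, 0.194 and 0.202), and nearest to C3 were Slc6a12, Dcbld2 and Syt7 (0.109, 0.131 and 0.135). Nearest to C1qb were Gramd1c, Alox15 and Rundc3b (0.0365, 0.0604 and 0.0639), and nearest to C1qc were Fgd1, Wwtr1 and Serpinf1 (0.0252, 0.0511 and 0.0530). C3ar1 lay nearest to Mill2, Mrpl37 and Lrrc41 (0.00307, 0.0119 and 0.0137), C5ar1 to Dimt1, Rpa2 and Ifrd1 (0.0453, 0.0581 and 0.0623), and Serping1 to Bcl9, Elfn1 and Gpr15 (0.110, 0.123 and 0.132). Within the family, Cfp ranked 2 of 12063 genes for C1qa, C1qc ranked 30 for C1qa, and C1qb ranked 79 for C1qc. C1qa ranked 294 for C1qb. Cfp ranked 60 for C1qc and 133 for C1qb. C3 ranked 513 for Cfb, and Serping1 ranked 566 for C3. Further apart were C3 at rank 11074 and Cfb at rank 11931 for C1qa, although in the other direction C1qa ranked 4259 for C3 and 5310 for Cfb. C5ar1 ranked 3234 for C3ar1 and was the member nearest to it.

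Of 50 other complement genes listed from general knowledge, 44 were in the tables, 22 were tested and 22 fell under the filter, while the other 6 were not analysed here. This list too was made with earlier results of these data known, so that counts over it are a description only. For LPS in WT, 9 of the 22 were higher and 5 lower. In KO-labelled libraries 8 were higher and 8 lower. Of all genes tested 76.7% and 79.9% passed in these comparisons. For KO-labelled against WT, 1 was higher and 9 lower with PBS, and 1 was higher and 9 lower with LPS, where 13% and 19.3% of all genes were lower. Their median log2 values were 0.02 and 0.06 for LPS in WT and in KO-labelled libraries, and -0.15 and -0.23 for the genotype label with PBS and with LPS.

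C1ra, a protease of the C1 complex that Serping1 restrains, rose from 6.68 to 6.98 CPM with PBS to 42.0 to 49.6 CPM with LPS in WT libraries and from 3.67 to 4.07 CPM to 31.96 to 36.7 CPM in KO-labelled libraries. Its log2 changes were 2.78 ± 0.09 (adjusted p = 1.24e-14) and 3.17 ± 0.09 (adjusted p = 6.34e-15). C5ar2, the other C5a receptor, moved the opposite way, from 5.89 to 6.69 CPM to 0.809 to 0.968 CPM in WT and from 5.45 to 6.12 CPM to 0.982 to 1.04 CPM in KO-labelled libraries (log2 -2.85 ± 0.15 and -2.54 ± 0.15, adjusted p = 1.5e-11 and 6.59e-11). The counts of both carried decimals in all 12 libraries and are uncertain where reads were shared between genes.

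Cd93, a surface protein once proposed as a C1q receptor, fell with LPS from 863 to 926 CPM to 238 to 283 CPM in WT and from 1084 to 1138 CPM to 195 to 229 CPM in KO-labelled libraries. The log2 changes were -1.82 ± 0.08 and -2.42 ± 0.08 (adjusted p = 6.19e-13 and 1.51e-14), and Cd93 was the only gene of the 22 whose interaction passed (-0.60 ± 0.10, adjusted p = 0.000883). Its counts carried decimals in 11 libraries. Lrp1, a scavenger receptor that binds C1q-bearing material together with calreticulin, fell with LPS in KO-labelled libraries, from 1784 to 2092 CPM to 752 to 1109 CPM (log2 -1.03 ± 0.28, adjusted p = 0.00676). In WT, Lrp1 stood at 1844 to 2257 CPM with PBS and at 2117, 933 and 1160 CPM with LPS (log2 -0.54 ± 0.28, adjusted p = 0.0996). The value of 2117 CPM was that of replicate 1, the library that stood apart. The difference of the Lrp1 responses was -0.49 ± 0.39 (adjusted p = 0.454).

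Fcna, the ficolin that recognises microbial sugars for the lectin pathway, was lower with the KO label, at 25.3 to 26.3 CPM in WT and 8.56 to 9.03 CPM in KO-labelled libraries with PBS, and at 26.2 to 34.3 CPM and 10.4 to 11.8 CPM with LPS. The log2 differences were -1.54 ± 0.09 and -1.43 ± 0.10 (adjusted p = 8.55e-09 and 1.91e-08). Itgax, the alpha chain of complement receptor CR4, was also lower, at 318 to 336 CPM against 159 to 165 CPM with PBS and at 306 to 360 CPM against 149 to 176 CPM with LPS. Its log2 differences were -1.02 ± 0.07 and -1.06 ± 0.07 (adjusted p = 5.49e-08 and 2.01e-08). Neither gene overlapped between the genotype labels.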

How the data were processed

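RNA had been sequenced as single-end reads on a BGISEQ-500. The authors deposited estimated counts per gene (expected counts), not scaled between libraries. The submitters' processing notes name Bowtie2, RSEM 1.3.1 and build GRCm38.p6, whereas the study's methods name STAR and HTSeq. Decimals occurred in 24.6% to 26.9% of the values of a library, as arises where a counter shares reads between genes. Strand use in counting is not given in the sources used here. Values were rounded to whole counts. Positions and promoters came from RefSeq (GRCm38.p6) by gene number (99.3% of 16920 found), and lengths are those of the principal transcript in GENCODE.

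In R 4.3.3, edgeR 4.0.16 fitted a robust quasi-likelihood model with TMM scaling, filterByExpr over the 4 groups and 1 mean per group to all 12 libraries. P-values were two-sided and adjusted (Benjamini-Hochberg) over 12064 genes in each of 5 contrasts, with a threshold of 0.05. The SE is the log2 fold change divided by the root of its F statistic. The code was tested on simulated data, where the condition for passing was eased after stricter ones had failed and covers well-counted genes, not genes with as few counts as Serping1. Floors (3 counts) cover counting error only.

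Alternatives were RLE, upper-quartile and total scaling, no filter, DESeq2 1.42.0, a minimum of 10 counts in each library, only the libraries compared, a replicate block and leaving out each library. The 9 genes and all lists were chosen with earlier results of these data known. Other complement genes were named if they passed with a log2 fold change over 1 in size and their higher group averaged 5 CPM or more, and for each member the 3 genes nearest in pattern were named.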

Additional observations from a re-analysis of the deposited data

Results flagged for a closer look

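The response to LPS differed between the genotype labels for 5 of the 9 genes by the test of the interaction in edgeR (response in KO-labelled minus response in WT libraries, on the log2 scale, 3 libraries a group), which 18% of all genes tested passed. The difference was 1.65 for Cfb (adjusted p = 6.09e-05), whose level rose in both genotypes, and 0.789 for C5ar1 (adjusted p = 1.01e-05), whose TMM-scaled LPS libraries were all below the PBS libraries in WT and all above them in KO-labelled cells, although totals alone gave a lower level with LPS in both. It was -0.403 for C1qc (adjusted p = 0.00464), -0.313 for C1qb (adjusted p = 0.015) and -0.279 for C1qa (adjusted p = 0.0487). The value of C1qa rests on a p near the threshold. Single outlying libraries were not tested for in groups of 3.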

How the results depend on the processing

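Over the alternatives, 796 values of single genes kept their direction and side of the threshold, 56 lost the call, 10 gained it and 24 changed direction. Changes of direction concerned LPS against PBS, apart from 2 differences that were not called in the first place. With RLE scaling C1qa in KO-labelled libraries was 0.0102, and with DESeq2 0.0103. Under upper-quartile scaling C1qa was -0.0479 and C1qc -0.131 in WT, and C1qb -0.188 and Cfp -0.216 in KO-labelled libraries. Under library totals alone WT values were -0.401 for C1qa, -0.182 for C1qb, -0.484 for C1qc, -0.342 for Cfp and -0.111 for C3ar1, and KO-labelled values were -0.633 for C1qb, -0.661 for Cfp, -0.253 for C3ar1 and -0.252 for C5ar1. Leaving out 1 library gave -0.0849 to 0.0284 for C1qa with LPS in KO-labelled libraries, -0.222 to 0.399 for Serping1 by genotype label with PBS, and -0.0566 to 0.0104 for the interaction of C3ar1. Requiring at least 10 counts in every library left 8 of the 9 genes (not Serping1) and 5 called for LPS in KO-labelled libraries in place of 8, where C1qb (0.12) and Cfp (0.09) were no longer past the threshold. With the replicate block 6 genes passed the interaction in place of 5, C3 being added (0.58, adjusted p = 0.0292), and the other 4 counts were the same. Correlations of the deviations of same-numbered libraries lay between -0.0758 and 0.128, and 1 of 18 exceeded 0.1. For 4 of 12 libraries the best correlation was with their own number. No pairing by number was seen, but with 3 libraries a group this does not exclude shared animals or batches. Leaving out 1 library gave 8 to 9 genes called for LPS in WT, 6 to 8 in KO-labelled libraries, 7 to 8 and 7 to 9 by genotype label with PBS and with LPS, and 4 to 7 for the interaction. Depth limits Serping1 most, with 9 counts in its lowest library. The fit of only the libraries compared was not run for the interaction, which needs all 4 groups.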
